A study of Mus musculus with 3 samples.

Results

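The bone morphogenetic protein (BMP) genes examined were 10 of the 32285 genes in the count files, chosen by name: the ligands Bmp2, Bmp3, Bmp4 and Gdf10, the proteinase Bmp1, the secreted binding proteins Grem1, Chrdl1, Fst and Fstl1, and the target gene Id1. Each symbol was matched to 1 Ensembl ID, and each ID to 1 row. Single cells came from skin wounds of mice of the strain C57BL/6J, taken on Day 3, Day 7 or Day 14 after injury, with no unwounded library. Per the study's methods the mice were males of 7 to 12 weeks, with full-thickness excisional wounds made in the dorsal skin by a 4-mm punch, whereas the series text calls the injury incisional. Tissue of 4 wound samples was pooled into each library, and each day had 1 library. Day and library therefore cannot be told apart, differences between days have no replicate check, and no p-value is given.

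BMPs are secreted dimers of the transforming growth factor beta superfamily that bind pairs of serine/threonine kinase receptors and act through phosphorylated Smad proteins. Extracellular antagonists bind the ligands and keep them from their receptors, and the Id genes are among the direct targets. In skin the pathway is best known for setting the hair follicle cycle, where dermal papilla cells express ligands and antagonists, and for keratinocyte differentiation.

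The Day 3, Day 7 and Day 14 libraries held 5158, 22924 and 16611 barcodes with 38133650, 120940799 and 112713257 UMIs. After filters on genes, UMIs and mitochondrial share and the removal of 92, 1978 and 962 likely doublets, 4360, 19590 and 13510 cells remained. The libraries shared 19 to 111 barcodes with each other. Cells were clustered into 30 clusters without the members or 59 other pathway genes, and 11 classes were named from markers. The fibroblast-like class held 406, 5847 and 5218 cells, with a median of 44305.5, 10344 and 10525 UMIs per cell. Its 8 markers were each found in at least 78.3% of its cells. The macrophage-like class held 2553, 8537 and 3010 cells. The epithelial cell-like, mesenchymal cell-like and Schwann cell-like classes lay mostly in the Day 14 library, with 750, 728 and 141 cells there. The Schwann cell-like class also had the melanocyte markers Dct and Tyrp1 among its leading genes, and its part of melanocytes was not tested. Cluster 11, with 0, 57 and 1472 cells and led by Wfdc12, Gal, Cdh4, Igfbp2 and Ppp1r14a, carried all 8 fibroblast markers but also had the pericyte marker Ndufa4l2 among its leading genes, so it was left unnamed and is given by its number. Levels are CPM, the UMIs of a gene per 1000000 summed UMIs of all cells of a group, and brackets give 95% intervals that cover counting error only. With 3′ end counting these levels were not divided by gene length, and differences in capture between genes were not tested. Days are compared within a class only where at least 50 cells of each day were in it.

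The promoters of 4 of the 10 members were in the RefSeq table used (GRCm38.p6), those of Bmp4, Fstl1, Gdf10 and Grem1. The 250 bases before the start of Bmp4 and Grem1 are shown because, of these 4, they were the ones whose UMIs lay mainly outside the class named fibroblast-like on Day 14. For Grem1 this holds only with cluster 11, which carried all 8 fibroblast markers, left out of that class. Capitals mark the letters GGGCGG (the GC box) and GGCGCC, a GC-rich element known from BMP-responsive promoters, read 5′ to 3′ along the gene's own strand with matches on either strand.
Bmp4 (chr14:46390670-46390919, minus strand): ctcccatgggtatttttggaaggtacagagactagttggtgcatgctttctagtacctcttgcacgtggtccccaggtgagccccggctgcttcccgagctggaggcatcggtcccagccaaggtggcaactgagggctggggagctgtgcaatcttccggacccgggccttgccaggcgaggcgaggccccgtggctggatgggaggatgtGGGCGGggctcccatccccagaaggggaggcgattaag
Grem1 (chr2:113758649-113758898, minus strand): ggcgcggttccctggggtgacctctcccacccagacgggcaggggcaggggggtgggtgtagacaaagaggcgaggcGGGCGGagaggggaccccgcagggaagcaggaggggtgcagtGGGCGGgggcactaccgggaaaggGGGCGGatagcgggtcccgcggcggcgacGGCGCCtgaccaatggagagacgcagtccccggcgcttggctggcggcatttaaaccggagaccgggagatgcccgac
The Bmp4 stretch was 63.2% G and C and held GGGCGG at 1 place. The Grem1 stretch was 72% G and C and held GGGCGG at 3 places and GGCGCC at 1. GGGCGG was in the stretches of all 4 matched members and in 32.7% of the 32851 promoters of the table. GGCGCC was in that of Grem1 and in 9.59% of promoters. The E-box CACGTG was in that of Bmp4, left in lower case here, and in 6.02% of promoters. The TATA box, TATAAA, was in none of the 4 stretches and in 12.4% of promoters. The Smad-binding element, searched as CAGACA, was also in none of the 4 and in 17.1% of promoters. The same held for the AP-1 motif, TGACTCA, present in 4.46% of promoters. Both strands were searched for each. Each motif was counted on its own, so that matches of different motifs could overlap. A match describes the letters and is no evidence of a bound factor.

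Bmp4 (chr14:46383520-46390669, minus strand, mm10), a ligand of dermal papilla and other mesenchymal cells, was concentrated in the mesenchymal cell-like class. In all kept cells its level was 1.27 (0.929 to 1.70), 2.30 (2.02 to 2.62) and 29.3 (28.2 to 30.4) CPM on Days 3, 7 and 14. Without the mesenchymal cell-like class these levels were 0.595, 1.39 and 11.7 CPM. The class held 63 cells on Day 7 and 728 on Day 14, which was 5.39% of the kept cells of that day, against 39.8% and 61.0% of the Bmp4 UMIs. On Day 3, 24 of 45 Bmp4 UMIs lay in its 4 cells.

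Within the mesenchymal cell-like class the level of Bmp4 was 786 (634 to 964) CPM on Day 7 and 804 (767 to 843) CPM on Day 14. The days did not differ beyond counting error, with a log2 ratio of 0.03 (-0.27 to 0.35). The level was 679-fold (494 to 936) and 162-fold (143 to 185) that of fibroblast-like cells on the same days. The markers of this class came from a cluster table that the study made on these same libraries, and the study marks the class by Bmp4, so that its high level there is a description. The class was led by Slc26a7, Wif1, Pappa2, Lef1 and Prlr. After thinning each cell to 500 UMIs, 36.5% and 28.7% of its cells had a Bmp4 UMI, against 0.0117% and 0.233% of macrophage-like cells. Without thinning, the shares were 65.1% and 73.4% against 0.0351% and 0.698%, at medians of 1557 and 2370.5 UMIs per mesenchymal cell-like cell and 2709 and 3718.5 per macrophage-like cell.

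Outside that class, Bmp4 was next highest in endothelial cell-like cells and in cluster 11. Endothelial cell-like cells had 26.6 (19.7 to 35.1) and 45.9 (35.5 to 58.4) CPM on Days 7 and 14, which was 22.9-fold (15.6 to 33.4) and 9.27-fold (6.98 to 12.2) the fibroblast-like level. Of the 2 endothelial clusters, cluster 23, led by Selp, Aplnr and Emcn, had 35.2 and 61.5 CPM, and cluster 27, with the lymphatic genes Prox1 and Flt4 among its leading genes, had 2.08 and 17.7 CPM from 1 and 9 UMIs. Cluster 11 had 16.1 (6.45 to 33.1) and 44.5 (41.0 to 48.2) CPM, the Day 7 value from 7 UMIs. On Day 14 it held 21% of the Bmp4 UMIs, spread over 393 of its 1472 cells with at most 5 in any cell. Endothelial cell-like cells and cluster 11 thus lay at the same level on Day 14 within their intervals.

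In fibroblast-like cells Bmp4 had 0.963 (0.580 to 1.5), 1.16 (0.908 to 1.46) and 4.95 (4.39 to 5.57) CPM, from 19, 73 and 280 UMIs. Day 14 stood above both earlier days, whose intervals overlapped. Day 14 over Day 7 gave a log2 ratio of 2.10 (1.72 to 2.49), at a level under the minimum of 10 CPM used to call a gene. Over 14 other ways of processing it ran from 1.90 to 3.34, and in 8 of them Bmp4 passed the minimum and was called higher. Within cluster 2, a fibroblast-like cluster led by Akr1c18, Edn1, Pla1a, Pi16 and Scara5, the log2 ratio was 1.45 (0.96 to 1.96). Within cluster 1, led by Mgp, Cilp, Fbln7, Thbs4 and Eln, it was -0.28 (-1.03 to 0.57). Within cluster 7, led by Tnn, Prss35, H19, Tnc and Lrrc15, it was 4.81 (1.03 to 8.60), from 2 UMIs on each day. A difference between the days was thus seen in cluster 2, and in cluster 7 from very few UMIs, and was not detectable in cluster 1. Cluster 7 had 2.23 (0.270 to 8.04) CPM on Day 14, near the macrophage-like level given below. Clusters 7, 10 and 20 were low in Bmp4 on Day 7, with 2, 5 and 3 of the 73 UMIs, and held 2245, 1268 and 418 of the 5847 fibroblast-like cells then but 99, 40 and 44 of 5218 on Day 14. The class ratio therefore also carries this change in makeup. Bmp4 was also higher on Day 14 in macrophage-like cells, with 0.155 and 1.95 CPM on Days 7 and 14 from 4 and 24 UMIs. The Day 14 levels of macrophage-like, dendritic cell-like and pericyte-like cells were 39.4%, 58.7% and 93.1% of the fibroblast-like level. T cell-like cells had 0 UMIs that day. The part of free RNA in these values was not tested. Epithelial cell-like cells had 22.6 (18.7 to 27) CPM on Day 14, and neutrophil-like cells had no Bmp4 UMI on Days 3 and 7.

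**Figure D1:**
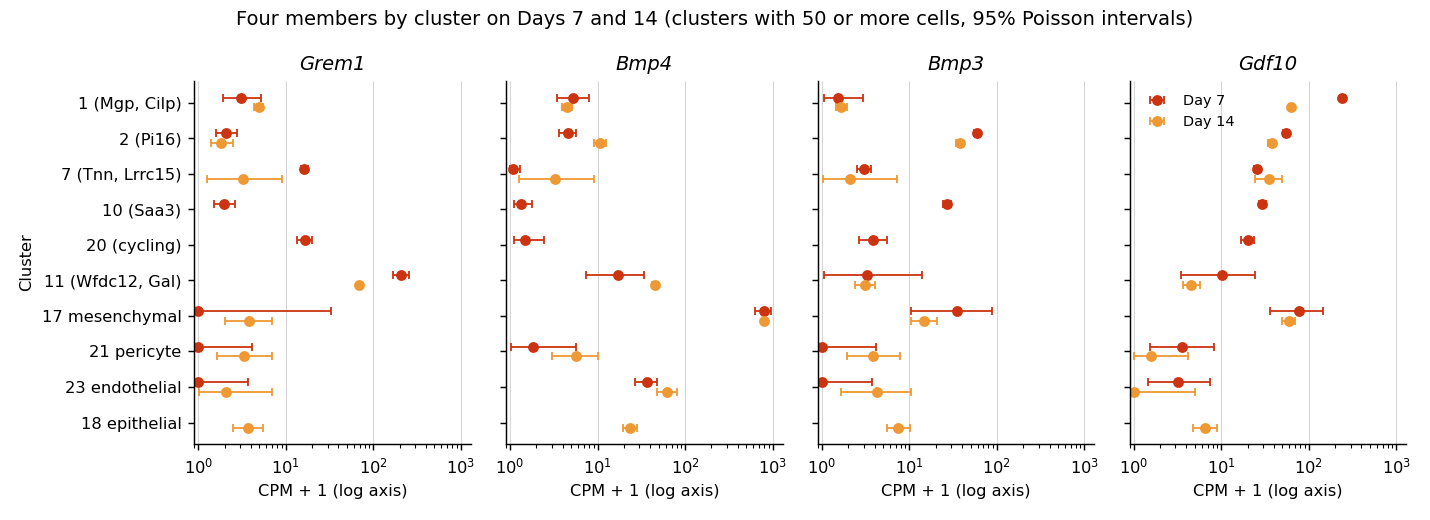
Levels of Grem1, Bmp4, Bmp3 and Gdf10 by cluster on Days 7 and 14, as CPM + 1 on a log axis, with 95% Poisson intervals. Grem1 peaked in cluster 11 (209 and 68.2 CPM), Bmp4 in mesenchymal cluster 17 (786 and 804 CPM), Bmp3 in fibroblast-like cluster 2 (57.8 and 36.4 CPM), and Gdf10 in cluster 1 on Day 7 (239.9 CPM).

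Bmp2 (chr2:133552159-133562885, plus strand), a ligand closely related to Bmp4, was spread over many classes. In all kept cells it had 15.8 (14.5 to 17.1), 16.7 (15.9 to 17.6) and 22.4 (21.4 to 23.3) CPM on Days 3, 7 and 14. Days 3 and 7 overlapped and Day 14 stood above both. The classes that held the UMIs also differed between the days. Fibroblast-like cells held 55.1%, 27.4% and 33.6% of them, and macrophage-like cells 39.0%, 57.1% and 14.8%. Epithelial cell-like cells held 19.6% on Day 14.

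In fibroblast-like cells Bmp2 had 15.6 (13.9 to 17.4), 7.30 (6.65 to 8.0) and 13.0 (12 to 13.9) CPM, lowest on Day 7. The 307 UMIs of Day 3 lay in 83 of 406 cells and the 460 of Day 7 in 248 of 5847. The intervals treat UMIs as independent and do not cover such clumping. The log2 ratio was -1.09 for Day 7 over Day 3 and 0.83 (0.66 to 1.00) for Day 14 over Day 7. The first of these was past 2-fold in 7 of 14 other ways of processing and between -1.34 and -0.71 in all of them. Cluster 10, led by Saa3, Prg4, Cxcl5, Serpinb2 and Chl1, and cluster 20, of cycling cells, held 232 and 160 of the 406 fibroblast-like cells of Day 3. Within them the log2 ratios of Day 7 to Day 3 were -1.03 (-1.39 to -0.66) and -0.74 (-1.20 to -0.30). On Day 14 cluster 2 had 24.1 CPM of Bmp2, 2.57-fold (2.21 to 2.99) the level of cluster 1.

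In macrophage-like cells Bmp2 had 17.9 (15.6 to 20.5), 37.0 (34.7 to 39.4) and 26.2 (23.4 to 29.2) CPM, highest on Day 7. These levels were 1.15-fold (0.964 to 1.38), 5.07-fold (4.53 to 5.68) and 2.02-fold (1.76 to 2.30) those of fibroblast-like cells. Here 217 UMIs lay in 126 of 2553 cells on Day 3 and 958 in 521 of 8537 on Day 7, clumping that the intervals do not cover. Between Days 3 and 7 the log2 ratio was 1.05 (0.83 to 1.27), opposite in sign to that of fibroblast-like cells. Neutrophil-like cells had 0 and 3 Bmp2 UMIs on Days 3 and 7. Dendritic cell-like cells had 8.12, 5.80 and 4.57 CPM, 2.21-fold to 6.38-fold under the macrophage-like level. The 8 fibroblast markers summed to 0.602%, 3.27% and 4.35% of their fibroblast-like level in macrophage-like cells on the 3 days, while Bmp2 was at 115%, 507% and 202% of its fibroblast-like level there.

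Most macrophage-like Bmp2 on Day 7 came from cluster 9, led by Cd163, Fcna, Lyve1 and Cbr2, genes known from resident macrophages of the dermis. Cluster 9 made up 5.01%, 18.5% and 14.5% of macrophage-like cells and held 29.0%, 66.6% and 41.9% of their Bmp2 UMIs. Its level was 86.8, 140.2 and 89.5 CPM on Days 3, 7 and 14, above every other macrophage-like cluster with at least 50 cells on that day. Within cluster 9 the log2 ratio was 0.69 (0.32 to 1.09) for Day 7 over Day 3 and -0.65 (-0.93 to -0.38) for Day 14 over Day 7. Cluster 14, led by Chil3 and Ly6c2, had 14.5 CPM on Day 3 and 50.3 CPM on Day 7, a log2 ratio of 1.80 (1.14 to 2.42). Cluster 8, with Arg1, did not differ between those days beyond counting error, at -0.31 (-1.03 to 0.36). Both the share of cluster 9 cells and its level of Bmp2 were thus higher on Day 7 than on Day 3.

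Several classes with fewer cells had the highest levels of Bmp2. Mesenchymal cell-like cells had 128 (71.7 to 211) and 101 (87.7 to 115) CPM on Days 7 and 14, and pericyte-like cells 65.6 (51.8 to 81.8) and 101 (87.0 to 118) CPM. Endothelial cell-like cells had 58.0 (47.6 to 70.1) and 42.5 (32.5 to 54.5) CPM, and epithelial cell-like cells 81.7 (74.1 to 89.8) CPM on Day 14. The 107 endothelial UMIs of Day 7 lay in 28 of 238 cells, clumping that the interval does not cover. On Day 14, mesenchymal cell-like and pericyte-like cells did not differ beyond counting error (1.01-fold, 0.822 to 1.24), epithelial cell-like cells lay just under the mesenchymal level (0.812-fold, 0.688 to 0.960), and endothelial cell-like cells lay 2.39-fold (1.78 to 3.25) under pericyte-like cells. Among endothelial clusters, cluster 23 had 77.0 and 65.8 CPM, and cluster 27 had 2 UMIs on Day 7 and 0 on Day 14.

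**Figure D2:**
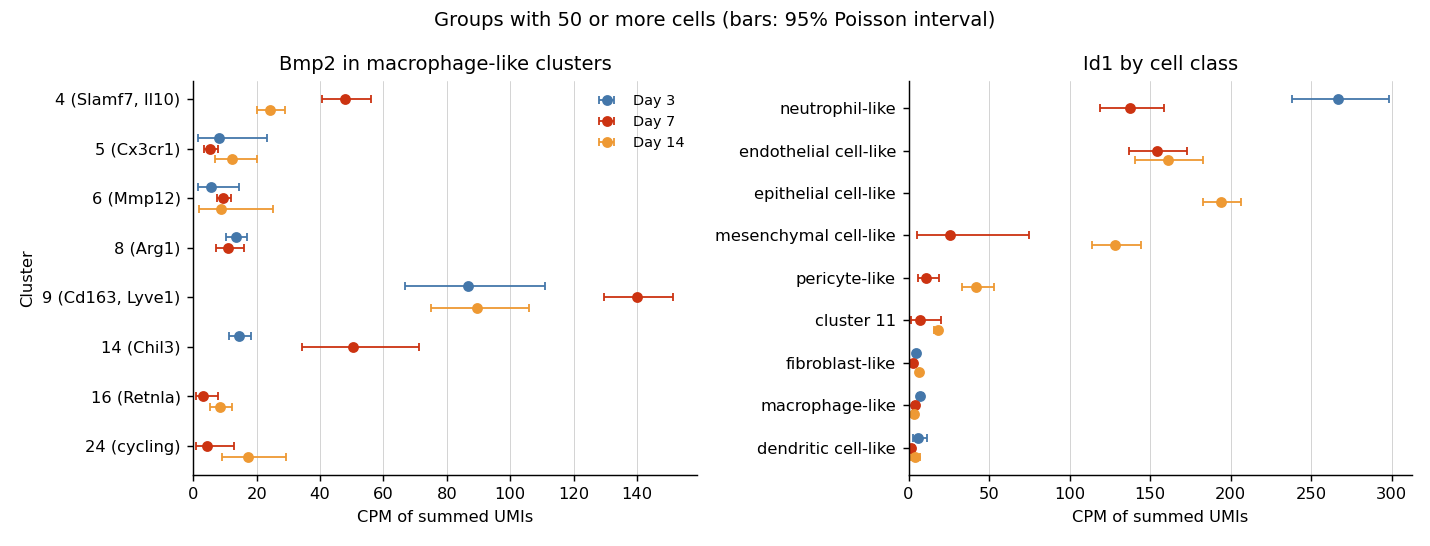
Left, CPM of Bmp2 in each macrophage-like cluster; right, CPM of Id1 in each class, for Days 3, 7 and 14, with 95% Poisson intervals and groups of at least 50 cells. Cluster 9 stands above the other macrophage-like clusters for Bmp2 (86.8, 140.2 and 89.5 CPM), and Id1 is high in neutrophil-like, endothelial, epithelial and Day 14 mesenchymal cell-like cells and low in fibroblast-like and macrophage-like cells.

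Bmp3 (chr5:98854415-98884396, plus strand), a family member known to dampen signalling by other BMPs, had most of its counts in fibroblast-like cells, which held 97.0%, 98.0% and 82.9% of its UMIs. Its level there was 4.97 (4.03 to 6.05), 19.3 (18.2 to 20.4) and 9.29 (8.51 to 10.1) CPM on Days 3, 7 and 14. Day 7 stood above both other days, with log2 ratios of 1.96 for Day 7 over Day 3 and -1.05 (-1.21 to -0.91) for Day 14 over Day 7. The first was past 2-fold in 14 of 14 other ways of processing and the second in 12 of 14.

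On Days 7 and 14 the level of Bmp3 differed more between fibroblast-like clusters than that of any other member, while on Day 3 clusters 10 and 20 were only 1.09-fold apart. On Day 7 the next member, Bmp4, was 53.6-fold apart, with 2 UMIs in its lowest cluster. That lies within the interval of Bmp3 given below, so the Day 7 order is not beyond counting error. Cluster 2, with the Pi16 gene that marks adventitial fibroblasts, had 57.8 and 36.4 CPM on Days 7 and 14, whereas cluster 1 had 2 and 27 UMIs, or 0.530 and 0.656 CPM. Cluster 2 was thus 109-fold (30.1 to 902) and 55.5-fold (37.7 to 85.1) higher than cluster 1. It held 63.0% and 93.1% of the class's Bmp3 UMIs in 25.4% and 25.9% of its cells. Cluster 10 had 4.70 CPM on Day 3 and 25.9 CPM on Day 7, a log2 ratio of 2.46 (2.01 to 2.93), while cycling cluster 20 had 5.14 and 2.82 CPM, at -0.87 (-1.76 to -0.04). Within cluster 2 the Day 14 level was lower than that of Day 7, at -0.67 (-0.83 to -0.50). Mesenchymal cell-like cells had 34.2 (9.31 to 87.5) and 13.8 (9.34 to 19.8) CPM, and endothelial cell-like and pericyte-like cells had 0 UMIs on Day 7. The mesenchymal values lay above the 19.3 and 9.29 CPM of the whole fibroblast-like class, with intervals that overlapped.

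Gdf10 (chr14:33923587-33937983, plus strand), also known as Bmp3b and the closest relative of Bmp3, had 25.9 (23.7 to 28.2), 44.0 (42.4 to 45.6) and 54.6 (52.7 to 56.5) CPM in fibroblast-like cells on Days 3, 7 and 14, each day above the one before. The log2 ratios were 0.76 and 0.31, and the second kept its sign in 11 of 14 other ways of processing. Single clusters moved both ways. Cluster 1 had 239.9 CPM on Day 7 and 61.3 CPM on Day 14, a log2 ratio of -1.97 (-2.08 to -1.86), and cluster 2 had 54.1 and 36.7 CPM, at -0.56 (-0.73 to -0.39). Cluster 7, with 24.3 and 34.5 CPM from 615 and 31 UMIs, gave 0.50 (-0.07 to 1.02). For Day 7 over Day 3, cluster 10 was higher, at 16.9 and 28.6 CPM and 0.76 (0.50 to 1.03), and cluster 20 lower, at 30.7 and 19.1 CPM and -0.69 (-1.01 to -0.37). Cluster 1 made up 7.34% of fibroblast-like cells on Day 7 and 70.6% on Day 14. The class level was thus higher on Day 14 while the level inside its 2 main clusters of that day was lower. Mesenchymal cell-like cells had 76.9 and 58.2 CPM, which did not differ from fibroblast-like cells beyond counting error on Day 14 (1.07-fold, 0.885 to 1.27). Cluster 11 had 4 and 48 UMIs, 4.79-fold (1.87 to 17.6) and 15.3-fold (11.5 to 20.9) below fibroblast-like cells. Among endothelial clusters, cluster 27 had 27.05 and 41.2 CPM from 13 and 21 UMIs, and cluster 23 had 3 and 0 UMIs.

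Bmp1 (chr14:70474558-70520234, minus strand) encodes a metalloproteinase and not a BMP ligand: it removes the C-terminal propeptide of fibrillar procollagens and also cleaves the antagonist chordin. Fibroblast-like cells held 98.3%, 95.6% and 79.6% of its UMIs, at 567 (556 to 577), 441 (436 to 446) and 259 (255 to 264) CPM on Days 3, 7 and 14. Each day lay below the one before, with log2 ratios of -0.36 and -0.77 (-0.79 to -0.74). The same direction held inside each cluster with enough cells on both days: for Day 7 over Day 3, cluster 10 gave -0.31 (-0.36 to -0.27) and cluster 20 gave -0.29 (-0.36 to -0.22), and the values were -0.32 (-0.41 to -0.23), -0.56 (-0.62 to -0.50) and -0.72 (-0.92 to -0.54) in clusters 1, 2 and 7 for Day 14 over Day 7. Cluster 11, which carried all 8 fibroblast markers but was not counted in the class, held 2771 of the 18409 Bmp1 UMIs of Day 14. It had 232 and 205 CPM on Days 7 and 14. Pericyte-like cells had 177 (154 to 203) and 52.4 (42.2 to 64.4) CPM, and the summed fibroblast markers stood there at 16.1% and 9.65% of their fibroblast-like level.

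In macrophage-like cells Bmp1 had 3.88, 17.4 and 13.4 CPM, which was 0.685%, 3.94% and 5.17% of its fibroblast-like level. Fstl1 was at 0.503%, 2.70% and 3.17% of its own, and the summed fibroblast markers at 0.602%, 3.27% and 4.35%, with all 8 detected on each day. These shares moved together over the days, and the part of fibroblast RNA in the macrophage-like values was not tested. In neutrophil-like cells the fibroblast markers stood at 1.21% and 8.73% on Days 3 and 7, and Bmp1 at 2.39% and 8.97%.

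**Figure D3:**
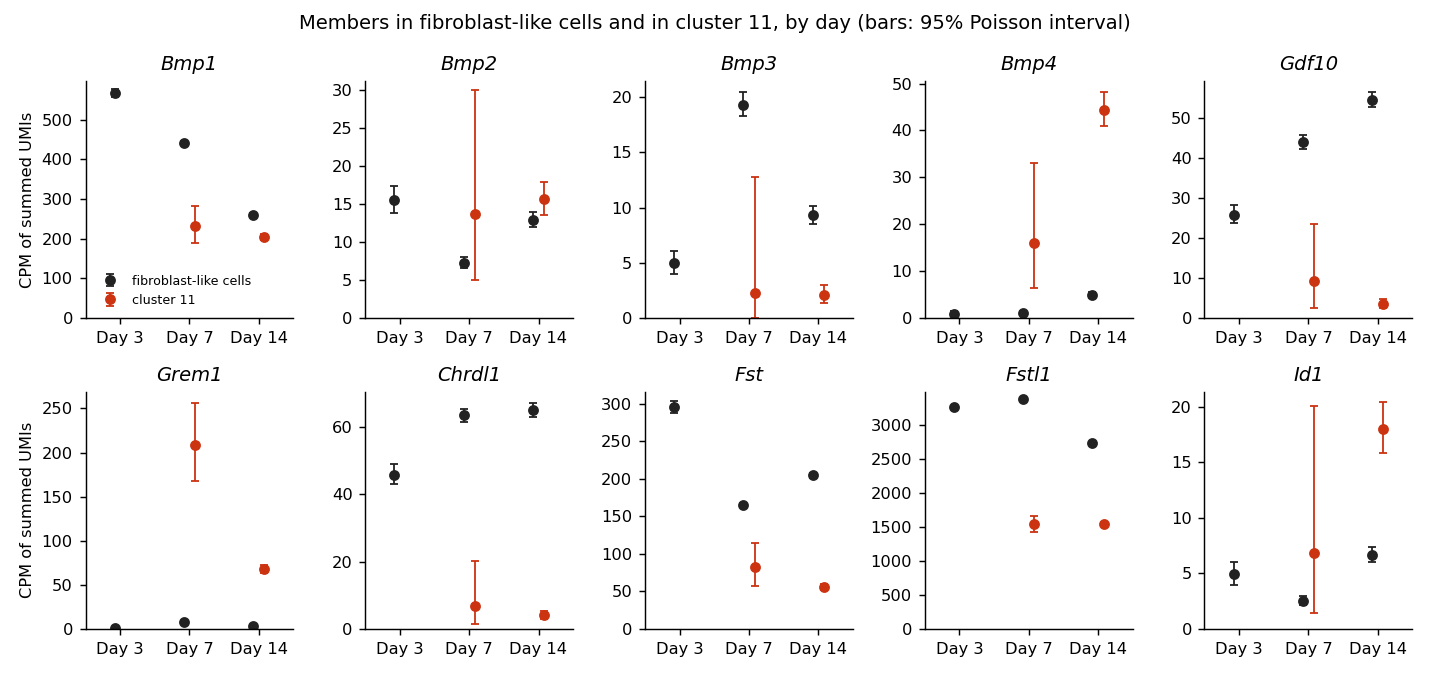
CPM of the 10 members in fibroblast-like cells (black) and cluster 11 (red) on Days 3, 7 and 14, each panel from 0, with 95% Poisson intervals. Bmp1 is lower on each later day (567, 441 and 259 CPM), Bmp3 and Grem1 are highest on Day 7 among fibroblast-like cells (for Grem1, Day 14 was below Day 7 in only 5 of 14 other ways of processing), and cluster 11 stands far above them for Grem1 and Bmp4 and below them for Gdf10, Chrdl1 and Fst.

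Grem1 (chr2:113746164-113758646, minus strand), a cystine-knot antagonist that binds BMP2 and BMP4 in other tissues, lay in fibroblast-like cells on Day 7 and mainly in cluster 11 on Day 14. In all kept cells it had 0.453 (0.259 to 0.735), 6.28 (5.80 to 6.79) and 11.99 (11.3 to 12.7) CPM from 16, 630 and 1170 UMIs. Without cluster 11 these levels were 0.453, 5.40 and 2.97 CPM. Fibroblast-like cells held 81.7% of the UMIs on Day 7 and 17.7% on Day 14, and cluster 11 held 14.4% and 78.6%. Since cluster 11 carried all 8 fibroblast markers, these shares do not show a move of Grem1 out of fibroblasts. Cluster 11 made up 10.9% of the kept cells on Day 14.

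Cluster 11 had 209 (168 to 256) CPM of Grem1 on Day 7 and 68.2 (63.8 to 72.7) CPM on Day 14, from 91 and 920 UMIs. These levels were 25.5-fold (20.2 to 32.0) and 18.6-fold (15.99 to 21.7) those of fibroblast-like cells. A minority of its cells carried the transcript: 23 of 57 cells had a UMI on Day 7 and 248 of 1472 on Day 14, and 57 cells with 5 or more UMIs held 63.5% of the Day 14 UMIs. After thinning to 500 UMIs, 12.3% and 2.72% of its cells had a Grem1 UMI, against 0.0117% and 0 of the macrophage-like cells. The count of cluster 11 cells on Day 7, 57, was just above the minimum of 50.

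In fibroblast-like cells Grem1 had 0.811 (0.463 to 1.32), 8.17 (7.48 to 8.91) and 3.66 (3.18 to 4.2) CPM, with Day 7 above both other days. The log2 ratios were 3.33 for Day 7 over Day 3 and -1.16 (-1.40 to -0.92) for Day 14 over Day 7. The first ran from 2.19 to 5.68 over 14 other ways of processing. The second kept its sign in 5 of 14 other ways of processing, which ran from -1.51 to 1.71, so its direction is not settled. It was 0.75 with cluster 11 counted as fibroblast-like, a choice made after seeing the data. The Day 14 class held 5218 cells here, and 5231 and 5185 at resolutions 0.5 and 2. It held 6690 cells with cluster 11 counted and 7266 with doublets kept, where the ratio was 1.71. Whether cells of cluster 11 entered the class in each way was not tested. On Day 7 the transcript was in cluster 7, led by Tnn, Prss35, H19, Tnc and Lrrc15, at 15.2 CPM, and in cycling cluster 20 at 15.6 CPM, which did not differ beyond counting error (1.02-fold, 0.808 to 1.29). Clusters 1, 2 and 10 had 2.12, 1.06 and 0.953 CPM. On Day 3 all 16 UMIs lay in cluster 20, in 4 cells, and 2 of these held 81.25% of them. On Day 7, 34 of 5847 cells held 50.1% of the UMIs of the class. Mesenchymal cell-like, epithelial cell-like and pericyte-like cells had 2.77, 2.68 and 2.31 CPM on Day 14, and macrophage-like cells 0.569 CPM. T cell-like cells had 7.30 CPM that day, above the fibroblast-like 3.66 CPM but from only 5 UMIs.

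Chrdl1 (chrX:143285674-143394262, minus strand), a chordin-like antagonist, lay almost wholly in fibroblast-like cells, which held 99.4%, 97.3% and 95% of its UMIs. Its level there was 45.8 (42.9 to 48.9), 63.4 (61.4 to 65.4) and 65.0 (62.9 to 67.1) CPM, lowest on Day 3, and the later days did not differ beyond counting error, with a log2 ratio of 0.04 (-0.03 to 0.10). As for Gdf10, single clusters moved in both directions. Cluster 1 had 163 and 58.0 CPM on Days 7 and 14, a log2 ratio of -1.49 (-1.62 to -1.36), and cluster 2 had 109 and 89.3 CPM, at -0.28 (-0.40 to -0.17). Cluster 7 was higher on Day 14, with 35.6 and 51.2 CPM from 901 and 46 UMIs, at 0.52 (0.06 to 0.95). For Day 7 over Day 3, cluster 10 gave 0.12 (-0.04 to 0.28), at 52.1 and 56.4 CPM. Cluster 20 gave -0.20 (-0.45 to 0.05), at 40.0 and 34.8 CPM, so neither differed beyond counting error. Cluster 11 had 3 and 55 UMIs, 9.21-fold (3.15 to 44.7) and 15.9-fold (12.2 to 21.2) below fibroblast-like cells, so that the cluster highest in Grem1 was low in Chrdl1. Pericyte-like cells had 2.52 (0.520 to 7.37) CPM on Day 7 and 19.0 (13.1 to 26.7) CPM on Day 14, from 3 and 33 UMIs.

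Fst (chr13:114452290-114458951, minus strand) encodes follistatin, which binds activins tightly and some BMPs more weakly. It had 296 (288 to 303), 165 (162 to 168) and 205 (201 to 208) CPM in fibroblast-like cells on Days 3, 7 and 14, highest on Day 3. Cluster 10 had 332 CPM on Day 3 and 244 CPM on Day 7, at a log2 ratio of -0.44 (-0.51 to -0.37), and cluster 20 had 259 and 152 CPM, at -0.77 (-0.88 to -0.66). Cluster 2 had 231 and 354 CPM on Days 7 and 14, at 0.62 (0.55 to 0.68), and was 2.49-fold (2.36 to 2.63) and 4.42-fold (3.50 to 5.66) higher than cluster 7, with 92.5 and 80.1 CPM. Among fibroblast-like clusters with at least 50 cells, cluster 2 had the highest level of Bmp2 and Bmp3 on Days 7 and 14, and on Day 14 also of Fst, Bmp1, Bmp4, Chrdl1 and Fstl1. Cluster 11, which carried all 8 fibroblast markers, was not ranked. Its Bmp4 on Day 14 was 44.5 CPM against 9.69 CPM in cluster 2. Its Bmp2 on Day 7 was 13.8 (5.05 to 29.9) CPM against 11.6 CPM, and its other levels lay below those listed for cluster 2.

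Epithelial cell-like cells were the other main place of Fst, with 254 (241 to 268) CPM on Day 14, which was 1.24-fold (1.17 to 1.32) the fibroblast-like level and 9.31% of the day's UMIs, while the summed fibroblast markers stood at 12.3% of their fibroblast-like level there. Mesenchymal cell-like cells had no Fst UMI on Day 7 and 206 UMIs, or 95.1 (82.6 to 109) CPM, on Day 14. The 95% interval of the log2 ratio of these counts began at 1.58. The summed macrophage markers differed between these 2 groups of cells, at 1957 and 258 CPM.

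Fstl1 (chr16:37776873-37836514, plus strand), a secreted glycoprotein related in sequence to follistatin, was the most abundant member, at 3267 (3241 to 3292), 3384 (3369 to 3398) and 2740.1 (2726 to 2754) CPM in fibroblast-like cells. The log2 ratios were 0.05 and -0.30, and between clusters the level differed by at most 1.74-fold on any day. Pericyte-like cells had 1036 (979 to 1095) and 901 (857 to 947) CPM, 3.27-fold and 3.04-fold below fibroblast-like cells on Days 7 and 14. Cluster 11 had 1541 and 1552 CPM.

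Id1 (chr2:152736251-152737410, plus strand) encodes an inhibitor of basic helix-loop-helix factors and is a direct target of BMP-activated Smads. Like Bmp4 and Grem1 it was low in fibroblast-like cells, with 4.91 (3.99 to 6.00), 2.54 (2.16 to 2.96) and 6.67 (6.01 to 7.38) CPM, lowest on Day 7. The log2 ratios were -0.95 (-1.33 to -0.57) and 1.39 (1.12 to 1.67), at levels under the 10 CPM minimum. Macrophage-like cells had 7.19, 3.75 and 3.25 CPM.

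Neutrophil-like cells had 267 (238 to 298) CPM of Id1 on Day 3 and 138 (119 to 159) CPM on Day 7. This was 37.1-fold (29.2 to 47.6) and 36.7-fold (28.6 to 47.4) the macrophage-like level, and 57.4% and 24.2% of all Id1 UMIs. Day 7 over Day 3 gave a log2 ratio of -0.95 (-1.22 to -0.69). After thinning to 500 UMIs, 10.9% and 6.06% of neutrophil-like cells had an Id1 UMI, against 0.392% and 0.129% of macrophage-like cells.

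Endothelial cell-like cells had 154 (137 to 173) and 161 (141 to 183) CPM of Id1 on Days 7 and 14, 60.7-fold (49.8 to 74.1) and 24.1-fold (20.4 to 28.5) the fibroblast-like level. Cluster 23 had 175 and 138 CPM and cluster 27 had 95.7 and 202 CPM, so that the order of these clusters differed between the days (1.82-fold, 1.33 to 2.56, then 0.684-fold, 0.523 to 0.895). Epithelial cell-like cells had 194 (182 to 207) CPM on Day 14 and held 44.3% of its Id1 UMIs. Mesenchymal cell-like cells had 3 UMIs on Day 7, or 25.6 (5.29 to 74.9) CPM, and 128 (114 to 144) CPM on Day 14. Pericyte-like cells had 10.9 (5.82 to 18.7) and 42.1 (33.0 to 52.9) CPM. On Day 14 the order was epithelial, endothelial, mesenchymal and pericyte-like, with 1.21-fold (1.05 to 1.40), 1.25-fold (1.05 to 1.497) and 3.05-fold (2.35 to 4.004) between neighbours. The level in all kept cells was 15.5, 7.76 and 23.5 CPM, against 6.85, 5.96 and 23.5 CPM without neutrophil-like cells and 15.5, 7.62 and 13.8 CPM without epithelial cell-like cells.

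**Figure D4:**
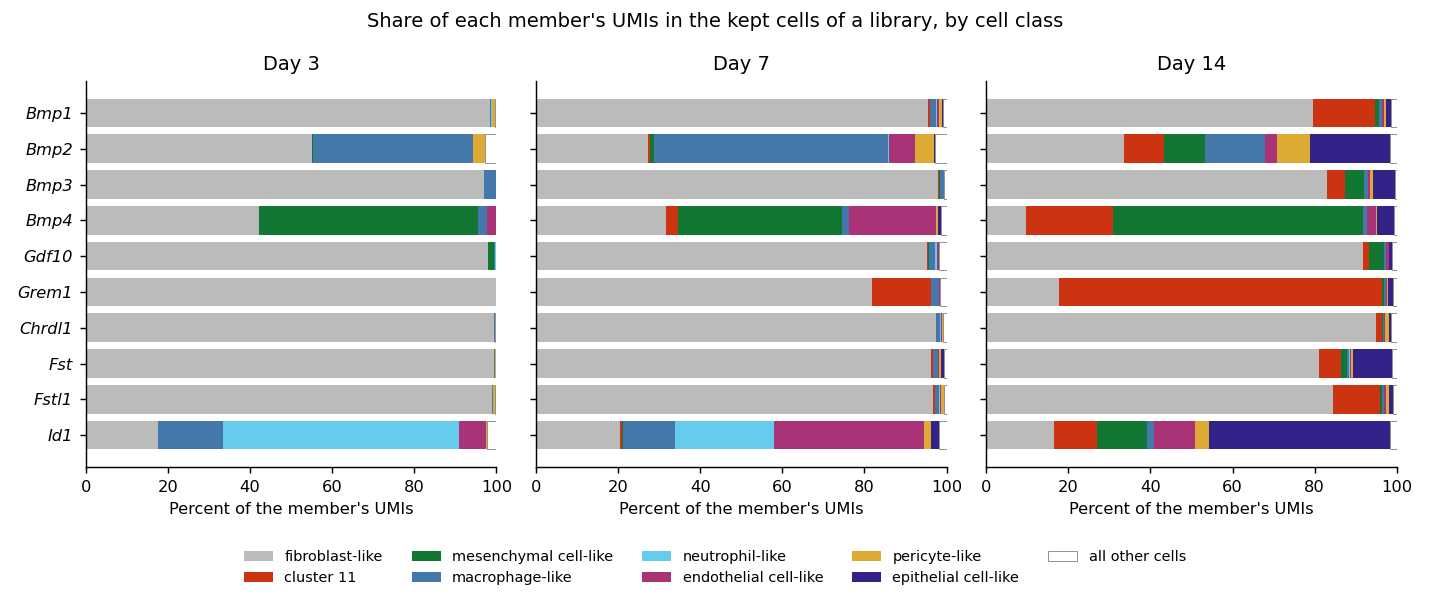
Percent of each member's UMIs that lay in each class among the kept cells of the Day 3, 7 and 14 libraries. Bmp1, Bmp3, Gdf10, Chrdl1, Fst and Fstl1 lie mostly in fibroblast-like cells (79.6% or more of Bmp1, for example), whereas Grem1 lies in fibroblast-like cells and cluster 11, which also carried all 8 fibroblast markers (81.7% and 14.4% on Day 7, 17.7% and 78.6% on Day 14), and Bmp2 and Id1 are spread over several classes. Mesenchymal cell-like cells hold 53.3%, 39.8% and 61.0% of Bmp4 on Days 3, 7 and 14. Fibroblast-like cells hold 42.2% and 31.6% of Bmp4 on Days 3 and 7, and endothelial cell-like cells 21.2% on Day 7.

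The ratios of the members were then read against those of all genes. A gene was called higher or lower where its level differed at least 2-fold, among genes with at least 10 CPM on 1 of the days and at least 10 UMIs in all. In fibroblast-like cells 7 of the 10 members passed this filter, and Bmp4, Grem1 and Id1 did not. For Day 7 over Day 3, 1 member, Bmp3, was called higher beside 5% of the 8208 genes tested, and 1, Bmp2, lower beside 9.82%. For Day 14 over Day 7, no member was called higher beside 2.4% of 7700 genes, and 1, Bmp3, lower beside 4.23%. The count of 0 depended on the processing, since Bmp4 passed the filter and was called higher in 8 of 14 other ways, Grem1 in 3, and Bmp2 and Id1 in 1 each. The median log2 ratio of the 7 members was 0.05 and 0.04, against -0.22 and -0.15 over all genes tested. Bmp3 lay above 98.6% of genes in the first comparison and above 3.74% in the second, and Bmp2 above 8.03% and 96.5%.

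**Figure D5:**
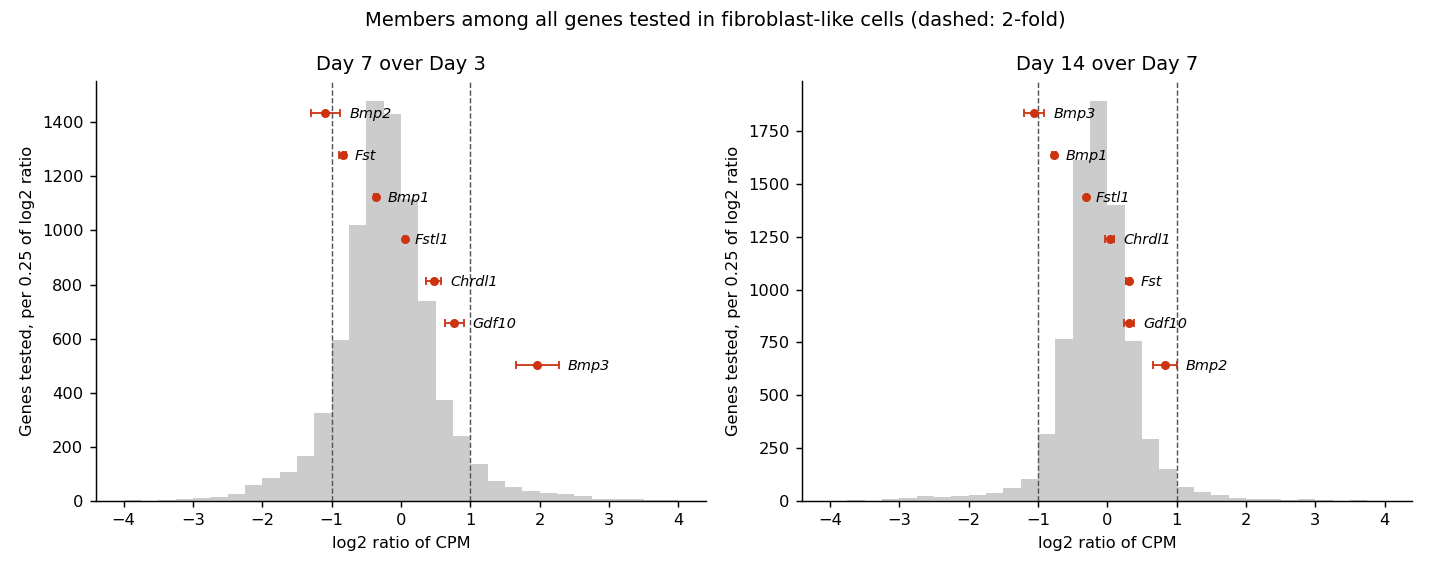
Histogram of the log2 ratios of all genes tested in fibroblast-like cells (grey bars, number of genes), with the 7 members tested as points with 95% intervals and dashed lines at 2-fold. Bmp3 lies past the right line for Day 7 over Day 3 (1.96) and past the left line for Day 14 over Day 7 (-1.05), Bmp2 lies past the left line in the first panel (-1.09), and the other members lie between the lines.

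In macrophage-like cells 3 members passed the filter, and all 3, Bmp1, Bmp2 and Fstl1, were called higher on Day 7 than on Day 3 beside 3.48% of 7595 genes, with log2 ratios of 2.16, 1.05 and 2.47. The fibroblast markers there went from 0.602% to 3.27% of their fibroblast-like level between these days, Bmp1 from 0.685% to 3.94% and Fstl1 from 0.503% to 2.70%, and the part of fibroblast RNA in the calls of Bmp1 and Fstl1 was not tested. No member was called lower beside 5.42% of genes, nor in either direction for Day 14 over Day 7 (2.81% higher and 3.9% lower of 7536 genes).

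Other immune classes also had Bmp1 and Fstl1 called higher on Day 7 than on Day 3. In neutrophil-like cells Bmp1, Fst and Fstl1 were called higher, 3 of the 4 members tested beside 23.5% of 6133 genes, with the fibroblast markers at 1.21% and 8.73% of their fibroblast-like level. In dendritic cell-like cells both members tested, Bmp1 and Fstl1, were called higher beside 5.94% of 7536 genes, with these markers at 0.578% and 2.96%. Neither was called lower (8.35% of genes), nor called for Day 14 over Day 7 (3.78% higher and 10.6% lower of 7435 genes). In T cell-like cells Bmp2 and Fst were called higher on Day 14 than on Day 7, 2 of 4 members tested beside 9.64% of 8549 genes, with intervals of -0.04 to 3.77 and -0.18 to 2.74 and the markers at 7.44% and 8.87%. No member was called lower in neutrophil-like (8.17%) or T cell-like cells (11.5%). The part of fibroblast RNA in these calls was not tested.

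In pericyte-like cells, for Day 14 over Day 7, Chrdl1 and Id1 were called higher (7.57% of 8764 genes) with log2 ratios of 2.91 (1.24 to 5.26) and 1.94 (1.08 to 2.92), and Bmp1 lower (16.1%) at -1.76 (-2.13 to -1.40), while the fibroblast markers there stood at 16.1% and 9.65% of their fibroblast-like level, a part that was not tested. In endothelial cell-like cells, Fst was called higher (6.04% of 8679 genes) at 1.11 (0.31 to 1.94) and no member lower (11.1%). Fst there went from 7.23% to 12.6% of its fibroblast-like level and the summed fibroblast markers from 6.22% to 8.77% of theirs, with all 8 detected, and their part in the call was not tested. In mesenchymal cell-like cells, Fst and Id1 were called higher (12.2% of 8631 genes) and Bmp3 lower (12.4%), the last with an interval of -2.81 to 0.66. The 8 macrophage markers summed to 1957 CPM in the 63 mesenchymal cell-like cells of Day 7, with 1 marker at 0, and to 258 CPM on Day 14, and their part in these calls was not tested. Over all kept cells, Bmp3 was called higher (3.95% of 8636 genes) and Id1 lower (8.09%) for Day 7 over Day 3, and Bmp4 and Id1 higher (4.17% of 8426 genes) and no member lower (6.08%) for Day 14 over Day 7.

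Of 59 other genes of the pathway, 29 passed the filter in fibroblast-like cells for Day 7 over Day 3 and 28 for Day 14 over Day 7, with median log2 ratios of -0.19 and -0.02. Over all genes tested, 5% were called higher and 9.82% lower in the first comparison, and 2.4% and 4.23% in the second. Of 15 other antagonists and modulators, 7 and 6 were tested in the 2 comparisons, and Nbl1 was called higher on Day 7, with 84.9 and 209 CPM on Days 3 and 7, and Fstl3, a follistatin relative, lower, with 24.8 and 6.63 CPM. None of the 9 receptors and co-receptors tested was called in either comparison, a count that with so few genes is near these shares. Of the 8 Smad proteins and regulators, 6 were tested in each, and Smad1, a transducer of BMP signals, was called lower on Day 7, at 134 and 65.4 CPM. Of 14 other ligands 3 were tested in each comparison, and 2 of these, the activin subunits Inhba and Inhbb, were called lower on Day 14, Inhba with 100.2, 51.7 and 20.8 CPM on Days 3, 7 and 14 and Inhbb with 15.5, 20.7 and 2.51 CPM.

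Of 7 other targets 2 were tested in each comparison, and Id3 was called higher on Day 14, with 149.9, 252 and 515 CPM in fibroblast-like cells on Days 3, 7 and 14. The log2 ratio to Day 7 was 1.03, just past 2-fold. Id3 was also called higher on Day 14 in dendritic, mesenchymal, T cell-like and pericyte-like cells, beside 3.78%, 12.2%, 9.64% and 7.57% of genes. Macrophage-like cells had 84.5 and 130 CPM and endothelial cell-like cells 258 and 393 CPM on Days 7 and 14, without a call. Id3 thus had a far higher CPM than Id1 in fibroblast-like cells on every day, but the part of capture in this difference between genes was not tested. Pcolce2, an enhancer of the procollagen cleavage by Bmp1, was called higher on Day 14, at 47.2, 51.4 and 148 CPM, and in cluster 11 it had 147 and 479 CPM on Days 7 and 14. The mesenchymal cell-like class, high in Bmp4, also had 282 and 211 CPM of Bmp7 and 367 and 543 CPM of Inhba on Days 7 and 14, against 7.67 and 7.15 CPM and 51.7 and 20.8 CPM in fibroblast-like cells. It had 188 and 243 CPM of Bambi, a pseudoreceptor that lowers signalling, and 119.6 and 247 CPM of Sostdc1. This antagonist was at 493 CPM on Day 14 in Schwann cell-like cells, a class with melanocyte markers among its leading genes. Pericyte-like cells had 29.4 and 36.3 CPM of the ligand Bmp5, which reached 2.62 CPM at most in fibroblast-like cells, and 581 and 1855 CPM of Id3.

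As a description of pattern, levels were correlated over 21 groups of a class on a day, as log2(CPM + 1), with the 7102 genes that reached 50 CPM in at least 1 group. Groups of the same day share a library, and cluster 11 was not among them. Bmp1 was most like Fkbp9 (Pearson's r 0.979) and Serpinh1 (0.973), and Fstl1 most like Fbn1 (0.978) and Bgn (0.975). Bmp4 was most like Col23a1 (0.956) and Col13a1 (0.945), Gdf10 like Tspan11 (0.924) and Pdgfra (0.914), and Chrdl1 like Prelp (0.933) and Arsi (0.929). Fst was most like Srpx (0.911) and Il1rl2 (0.909), Bmp3 like Maob (0.891) and Tspan11 (0.885), and Bmp2 like Exoc6b (0.887) and Larp4 (0.886). With log2(CPM + 10) instead, Maob moved to rank 13 for Bmp3, Srpx to 11 for Fst, Prelp to 17 for Chrdl1, Larp4 to 9 for Bmp2, and Fbln7 and Angptl1 to 40 and 18 for Grem1, while the other genes named here stayed within the first 3. Id1 and Grem1 had no close match over these groups, the nearest being Lcn2 (0.780) and Map1lc3b (0.771) for Id1 and Fbln7 (0.718) and Angptl1 (0.710) for Grem1. For Grem1 the groups lacked cluster 11, which held most of its Day 14 UMIs, so a match that rests on that cluster could not be seen. Between members, Bmp1 and Fstl1 were the most alike pair (0.957), followed by Chrdl1 and Fstl1 (0.862) and Chrdl1 and Fst (0.831).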

How the data were processed

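Single-cell RNA sequencing of wounded mouse skin gave 1 library for each of Days 3, 7 and 14. Per the submitters' processing notes, the authors made the deposited UMI counts with Cell Ranger 6.0.0 on mm10. The deposited values are raw, whole counts per gene and barcode, and every barcode in the files held at least 500 UMIs. Gene symbols were taken from the GENCODE vM21 annotation by Ensembl ID. The members and all gene and marker lists were chosen with earlier results of these data known.

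The filters were a minimum of 200 genes and of 500 UMIs per cell and a mitochondrial share of no more than 10%. Doublets were scored against simulated doublets among 50 neighbours, and 0.5 of the expected rate (0.8% per 1000 barcodes) was removed. No correction was made for free RNA. The 3 libraries were clustered together on 2000 variable genes, 30 principal components and 15 neighbours with the Leiden method at resolution 1. Of the genes, 165 were not used to cluster: the members, the pathway lists, mitochondrial and ribosomal protein genes and Gm42418. Clusters were named from markers, B cells, skeletal muscle and melanocytes naming none.

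Levels were CPM of summed UMIs with exact Poisson intervals, shares had Clopper-Pearson intervals and ratios exact conditional binomial intervals, all at 95%. Only the ratio intervals were tested on simulated data, with Poisson counts that do not clump in single cells. All intervals cover counting error only, and no test across samples was possible with 1 library per day. Those of levels and ratios treat UMIs as independent and do not widen where the UMIs of a gene clump in few cells. Total UMIs of 38133650 to 120940799 per library set the precision. Named genes were all members, the 59 pathway genes, the 2 genes most like each member (log2 of CPM plus 1) and the leading genes of clusters. Alternatives to the scaling, the filters, doublets, the resolution and the naming were computed. Python 3.11.15 was used with numpy 2.4.6, scipy 1.17.1, pandas 2.3.3, scikit-learn 1.9.0, leidenalg 0.10.2 and igraph 0.11.9.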

Additional observations from a re-analysis of the deposited data

Results flagged for a closer look

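Bmp2 moved in opposite directions in its 2 main classes between Days 3 and 7. Its log2 ratio of Day 7 to Day 3 was 1.05 in macrophage-like cells and -1.09 in fibroblast-like cells, and with 1 library per day the difference was not tested. The macrophage-like levels were 17.9 and 37.0 CPM and the fibroblast-like levels 15.6 and 7.30 CPM.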

How the results depend on the processing

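No paired analysis was possible because each day had 1 library and the labels give no replicate numbers. All values below are for fibroblast-like cells.

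For Day 7 over Day 3, the 1 member called higher, Bmp3, became 2 with scaling without the 50 most abundant genes or with no minimum on CPM (with Grem1), and 2 with a mitochondrial limit of 5%, each library clustered alone or a fold of 1.5 (with Gdf10). The 1 called lower, Bmp2, became 0 under scaling without the 50 most abundant genes, the median of ratios, the mean over cells, a limit of 20%, a minimum of 500 genes, doublets kept and resolution 2, and 2 with a fold of 1.5 (with Fst). The 410 genes called higher became 727 without the 50 most abundant genes, 2039 with no minimum and 870 at a fold of 1.5, and the 806 called lower became 526 with the median of ratios, 1707 with no minimum and 2046 at a fold of 1.5.

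For Day 14 over Day 7, the 0 members called higher became 1 without the 50 most abundant genes (Id1), with the median of ratios or a fold of 1.5 (Bmp2), and with a limit of 5%, the full expected rate of doublets removed, classes set cell by cell, or cluster 11 or clusters 11 and 15 counted as fibroblast-like (Bmp4). They became 2 with a limit of 20%, a minimum of 500 genes or doublets kept (Bmp4 and Grem1), and with no minimum on CPM (Bmp4 and Id1). The 1 called lower, Bmp3, became 2 without the 50 most abundant genes or with no minimum (with Grem1) and at a fold of 1.5 (with Bmp1), and 0 with the median of ratios or the mean over cells. The 185 genes called higher became 289, 1275 and 501 with the median of ratios, no minimum and a fold of 1.5, and the 326 called lower became 1889 with no minimum and 1083 at a fold of 1.5. The cause was not tested. Both cluster 11 alternatives were chosen after seeing the data.

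Over 14 alternatives, the log2 ratio of Day 14 to Day 7 ran from -1.51 to 1.71 for Grem1, from -0.42 to 0.21 for Chrdl1, from -0.12 to 0.48 for Gdf10 and from -0.18 to 0.48 for Fst, and that of Day 7 to Day 3 from -0.08 to 0.26 for Fstl1. The other members kept their direction in all 14 in each comparison.

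Some groups held few cells or UMIs: 57 cells of cluster 11 and 63 mesenchymal cell-like cells on Day 7, and 19 UMIs of Bmp4 and 16 of Grem1 in fibroblast-like cells on Day 3. Fibroblast-like cells of Day 3 came mostly from clusters 10 and 20 and those of Day 14 from clusters 1 and 2, so class ratios mix levels with the makeup of the class.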

Other observations

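Clusters left unnamed also held members. Cluster 15, with 99, 341 and 373 cells on Days 3, 7 and 14 and all 8 fibroblast markers at few UMIs, had 331, 225 and 224 CPM of Bmp1 and 1632, 1498 and 1676 CPM of Fstl1, the former lower on Day 7 than on Day 3, as in fibroblast-like cells. Its Gdf10 was at 53.6 and 50.05 CPM on Days 7 and 14. Cluster 12, with 174, 1004 and 228 cells and medians of 714.5, 907 and 735 UMIs, had 0 UMIs of Bmp4 on each day, where a count of 0 allows up to 20.5, 2.62 and 14.4 CPM.

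Schwann cell-like cells, 141 on Day 14, had 118 (92.3 to 149) CPM of Bmp1, 103 (79.1 to 132) CPM of Fst and 418 (368 to 473) CPM of Fstl1, against 16.6 (7.98 to 30.6) CPM of Chrdl1 and 0 UMIs of Bmp3 and Grem1. The part of melanocytes in these levels was not tested, with Dct and Tyrp1 among the leading genes of the class. T cell-like cells had 12 or fewer Bmp2 UMIs and 5 or fewer Id1 UMIs on each day.

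Within fibroblast-like cells thinned to 2000 UMIs, cells with a Gdf10 UMI had a Chrdl1 UMI in 18.1% (14.6 to 22.0) of cases on Day 7 and 19.2% (15.8 to 22.9) on Day 14, against 11.3% (10.5 to 12.2) and 11.4% (10.5 to 12.4) of cells without one. Cells with a Gdf10 UMI had an Fst UMI in 24.9% (20.9 to 29.2) and 20.6% (17.1 to 24.3) of cases, against 23.4% (22.3 to 24.5) and 26.0% (24.7 to 27.3). With a Bmp2 UMI, 40.6% (28.5 to 53.6) and 35.8% (26.8 to 45.5) of cells had an Fst UMI, against 23.3% and 25.2% without. For Grem1 these were 7.46% of 67 cells and 5% of 20, against 23.7% and 25.5%. Other pairs are not given. On Day 7, Gdf10 and Chrdl1 were both highest in cluster 1 among fibroblast-like clusters (239.9 and 163 CPM). The part of cluster makeup in these shares was not tested. Cells are not replicates, so the shares describe the 2 libraries only.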
